A study of Mus musculus with 27 samples.

Results

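NADPH is the electron donor that hepatocytes spend on antioxidant defence, lipid synthesis and drug metabolism, and 10 genes that supply it or its precursor NADP were followed here across 9 inbred mouse strains. The genes were Nnt, Idh1, Idh2, G6pdx, Pgd, Aldh1l1, Aldh1l2, Mthfd1, Nadk and Nadk2. They were chosen by name, as the rows of the expression table whose Ensembl ID carried one of these symbols in the GENCODE M21 annotation, and they make up 10 of the 43346 genes in the table. The question was how their RNA levels differ between strains, and whether the other 9 differ in C57BL/6J, the strain that carries a defective Nnt allele.

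Most cytosolic NADPH comes from the oxidative pentose phosphate pathway, from malic enzyme, from the cytosolic isocitrate dehydrogenase and from oxidation of folate-bound one-carbon units. In mitochondria it is made by isocitrate dehydrogenase 2, by mitochondrial folate enzymes and by nicotinamide nucleotide transhydrogenase (NNT), which sits in the inner membrane and uses the proton gradient to pass electrons from NADH to NADP. NAD kinases make the NADP that all of these reduce. The Nnt allele of C57BL/6J is known to lack several exons, and mice of this strain are widely used as a natural NNT-deficient model.

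RNA was sequenced from hepatocytes, the main epithelial cells of the liver, of female mice aged 12 weeks, with 3 libraries in each of 9 strains and no treatment named in the labels. The groups were C57BL/6J, A/J, 129S1/SvImJ, DBA/2J, NOD/ShiLtJ and NZO/HlLtJ, which are classical laboratory strains, and CAST/EiJ, PWK/PhJ and WSB/EiJ, which descend from wild mice. The labels call the libraries of a strain biological replicates and do not say how many mice each holds. Histone marks and DNA methylation, which the wider study also measured, were not analysed here.

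The libraries held 17015956 to 35078511 estimated counts, and 1 count corresponded to 0.0253 to 0.0516 CPM (counts scaled to the library size). All 10 hepatocyte markers were present in every strain, with summed levels between 115900 CPM (CAST/EiJ) and 274500 CPM (A/J). Most of this sum was Alb, at 132000 CPM on average over the libraries. The 12 markers of Kupffer cells, the macrophages of the liver, were also present at low levels, and all 12 were called higher in C57BL/6J than in the mean of the other strains. Their summed level was 234.8 to 323.2 CPM in the C57BL/6J libraries, against strain means from 69.09 CPM in 129S1/SvImJ to 258.1 CPM in PWK/PhJ, where the libraries ran from 157.7 to 458.9 CPM. Of 12 endothelial markers, 1 was called higher in C57BL/6J (Cdh5). In such bulk samples, fewer cells of a type and less RNA per cell cannot be told apart.

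The enzymes differed widely in level. Expressed as CPM per kb of the longest annotated transcript, averaged over 27 libraries, the level was 276 for Aldh1l1, 106.9 for Idh1, 59.69 for Mthfd1, 51.35 for Nadk, 41.78 for Idh2, 36.34 for Nnt, 26.93 for Nadk2, 8.13 for Pgd, 0.8381 for G6pdx and 0.01072 for Aldh1l2. The cytosolic folate enzyme Aldh1l1 thus led the list, and both enzymes of the oxidative pentose phosphate branch lay near its lower end. Across strains, 8 of the 9 members tested differed in edgeR's quasi-likelihood F test with Benjamini-Hochberg adjustment over 14482 genes, where 74.2% of all genes tested did so. The exception was G6pdx, and Aldh1l2 was too low to be tested. The highest strain mean exceeded the lowest by a median of 1.87-fold over the tested members, against 2.27-fold over all genes tested.

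Nnt (ENSMUSG00000025453, GRCm38 chr13:119335448-119408997, minus strand) was lowest in C57BL/6J. The 3 C57BL/6J libraries held 42.93, 37.45 and 36.17 CPM, a mean of 38.85 ± 3.59 CPM (SD, n = 3). The DBA/2J libraries held 156.2, 190.9 and 151.6 CPM, the highest strain mean at 166.2 ± 21.5 CPM (SD, n = 3). The CAST/EiJ libraries held 98.62, 106 and 103.4 CPM, the lowest mean outside C57BL/6J at 102.7 ± 3.74 CPM (SD, n = 3). No library of another strain came within reach of the C57BL/6J values.

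The remaining strains were close to one another for Nnt. The A/J libraries held 146.8, 148.5 and 155.5 CPM and the WSB/EiJ libraries 155, 160.6 and 132.2 CPM. The 129S1/SvImJ libraries held 128.2, 146.8 and 137.4 CPM, the PWK/PhJ libraries 155.7, 138.7 and 115.9 CPM, and the NZO/HlLtJ libraries 120.8, 135.4 and 145.6 CPM. The NOD/ShiLtJ libraries held 124, 117.1 and 111.4 CPM. From DBA/2J down to NOD/ShiLtJ, each strain overlapped the next in its libraries, whereas NOD/ShiLtJ lay wholly above CAST/EiJ, and CAST/EiJ wholly above C57BL/6J.

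The 8 other strains averaged 136.8 CPM of Nnt. The fitted log2 fold change in C57BL/6J was -1.80 ± 0.11 (SE; 95% interval -2.03 to -1.57; edgeR quasi-likelihood test, adjusted p = 1.53e-11), which puts the other strains 3.49-fold higher on the fitted scale. For comparison, the 8 other strains spanned 1.62-fold among themselves. In this contrast 18.1% of all genes tested were called. Taken strain by strain, Nnt was called higher than in C57BL/6J in 8 of 8 comparisons, by 1.40 (CAST/EiJ) to 2.10 (DBA/2J) on the log2 scale, a pattern that 0.235% of all genes tested showed. All 3 C57BL/6J libraries lay below all 24 others, as for 0.345% of genes. The transcript was not absent: 860 to 1256 counts were assigned to it in each C57BL/6J library, all whole numbers. The GRCm38 reference is itself a C57BL/6J genome, so exons that this allele lacks have no position in it, and a level set on GRCm38 counts the shared exons.

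**Figure D1:**
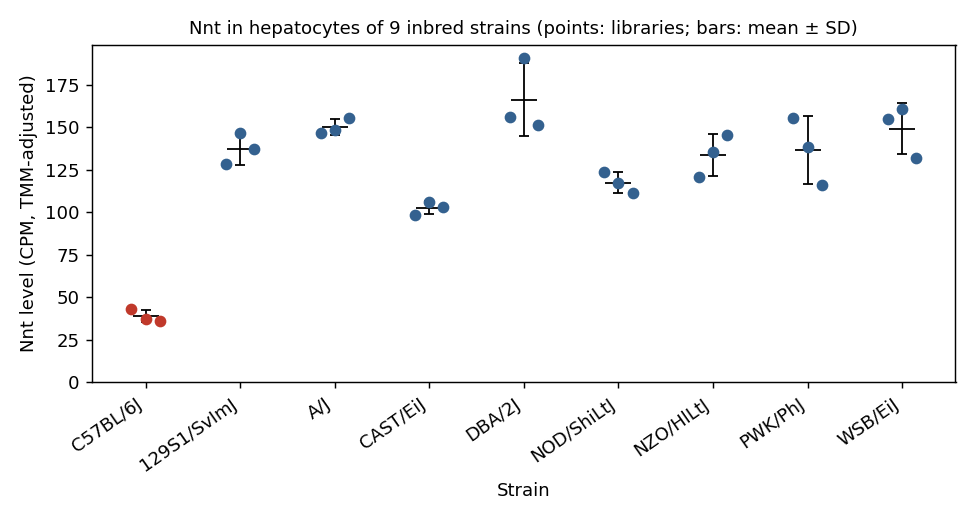
Nnt level in CPM on a linear axis from 0 for each of the 9 strains; points are the 3 libraries of a strain and bars the mean ± SD. The C57BL/6J libraries (red) sit between 36.17 and 42.93 CPM, below all 24 libraries of the other strains (98.62 to 190.9 CPM).

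Of the 4 tested genes flanking Nnt on chromosome 13, none was called lower in C57BL/6J by edgeR, where 6.5% of all genes tested were. So few genes cannot be told apart from that share. Paip1, 19.6 kb away and encoding a translation factor partner, had 19.53 ± 3.61 CPM (SD, n = 3) in C57BL/6J and strain means from 15.35 to 25.15 CPM elsewhere (log2 fold change -0.07, adjusted p = 0.792, edgeR). Mrps30, which encodes a mitochondrial ribosomal protein, lay 948.2 kb away and had a log2 fold change of -0.31 (adjusted p = 0.0718, edgeR). Emb, a cell surface glycoprotein gene 2061 kb away, was near the level of a few counts, with 0.0896 ± 0.0113 CPM (SD, n = 3) in C57BL/6J (adjusted p = 0.287, edgeR). The uncharacterised gene 4833420G17Rik, 53.77 kb away, was called higher in C57BL/6J than in the mean of the others (log2 fold change 1.16 ± 0.11 SE, adjusted p = 5.06e-08, edgeR). Its C57BL/6J mean was 12.31 ± 2.34 CPM (SD, n = 3), below A/J (15.71 CPM) and close to NOD/ShiLtJ (12.13), PWK/PhJ (11.67) and WSB/EiJ (11.54). Only CAST/EiJ (1.112 CPM), DBA/2J (2.767), NZO/HlLtJ (2.826) and 129S1/SvImJ (3.866) held much less of it. In 23 libraries its estimated count was fractional, so some of its reads were split with other sequences.

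Among the other 8 members tested, Aldh1l1 was the only one called in C57BL/6J against the mean of the 8 strains, and it was lower there. Several alternatives, given with its levels below, lost this call. With Nnt this made 2 called members, 2 lower and 0 higher, where 6.5% of all genes tested were called lower and 11.6% higher. DESeq2 called 3 members lower (Nnt, Aldh1l1 and Mthfd1) and 0 higher, where it called 8.64% of all genes lower and 11.8% higher. At an unadjusted p under 0.05, edgeR counted 4 members lower in C57BL/6J, Mthfd1 and Nadk being the added ones, and 1 higher (Pgd), where 12.8% of all genes were lower and 18.8% higher.

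The intervals of the members that were not called bound how far they can have moved in C57BL/6J. For Idh1 the 95% interval of the fold ran from 0.809 to 1.17, and for Idh2, the other mitochondrial NADPH source at sizeable level, from 0.658 to 1.08. It ran from 1.02 to 1.47 for Pgd, from 0.731 to 0.981 for Mthfd1, from 0.659 to 0.994 for Nadk and from 0.694 to 1.08 for Nadk2. The interval was widest for G6pdx, from 0.86 to 1.90. None of the 7 intervals reached a fall as deep as that of Nnt. These intervals hold for each gene alone and are not adjusted for the number of genes.

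**Figure D2:**
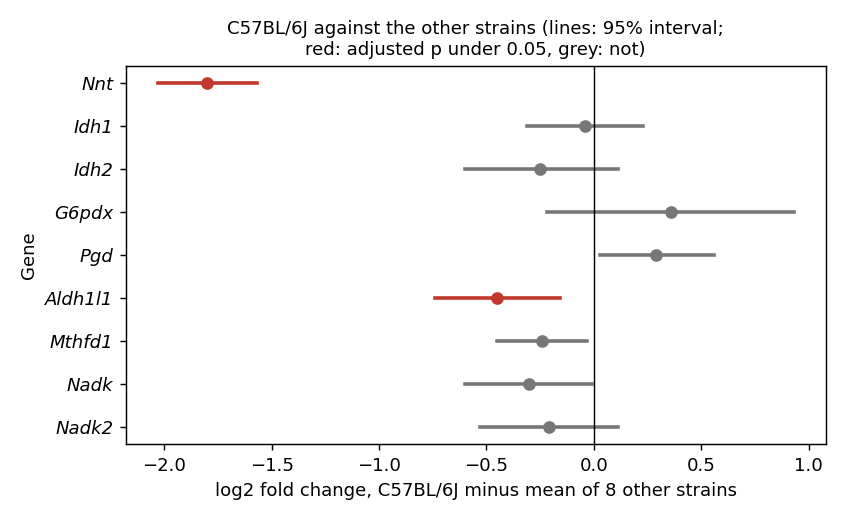
Log2 fold change of each tested member in C57BL/6J against the mean of the 8 other strains (point) with its 95% interval (line); red marks an edgeR adjusted p under 0.05. Nnt stands at -1.80 and Aldh1l1 at -0.45, and the other 7 genes lie between -0.30 and 0.36.

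The mitochondrial members were examined next. Idh2 (ENSMUSG00000030541, chr7:80094846-80115392, minus strand) oxidises isocitrate in the matrix and makes NADPH there. Its C57BL/6J libraries held 75.57, 61.76 and 52.03 CPM, a mean of 63.12 ± 11.8 CPM (SD, n = 3), the 8th of 9 strains. The CAST/EiJ libraries were highest at 91.15, 104.7 and 108.3 CPM, and the A/J libraries lowest at 53.39, 61.77 and 34.68 CPM. CAST/EiJ and C57BL/6J did not overlap, and the difference of 0.68 on the log2 scale was called (adjusted p = 0.0201, edgeR). The log2 fold change in C57BL/6J against the mean of the others was -0.25 ± 0.17 (SE; adjusted p = 0.35, edgeR), from -0.40 without C57BL/6J replicate 1 to -0.12 without replicate 4, and the test over all strains gave an adjusted p = 0.0169. With Kupffer and endothelial marker levels as covariates, the adjusted p over strains was 0.177 and the difference of CAST/EiJ 0.50 (adjusted p = 0.259, edgeR). That difference was also not called without C57BL/6J replicate 2 or 4 or CAST/EiJ replicate 4 or 5 (adjusted p of 0.0522 to 0.105) or in the fit blocked on replicate number (0.0876).

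Nadk2 (ENSMUSG00000022253, chr15:9071260-9110891, plus strand) is the mitochondrial NAD kinase, which supplies the NADP that NNT and IDH2 reduce. Its C57BL/6J libraries held 125.8, 86.4 and 77.99 CPM, so that replicate 1 stood above the other two. The NZO/HlLtJ libraries were highest and nearly equal, at 146.2, 149.2 and 148.1 CPM, all above the C57BL/6J libraries. WSB/EiJ was lowest, with 76.58, 77.52 and 99.3 CPM. NZO/HlLtJ was called higher than C57BL/6J by 0.61 on the log2 scale (adjusted p = 0.027, edgeR), whereas C57BL/6J against the mean of all others gave -0.21 ± 0.15 (SE; adjusted p = 0.378, edgeR). The latter was -0.44 without C57BL/6J replicate 1 and -0.07 without replicate 4, and it was not called with any library left out. The difference of NZO/HlLtJ fell to 0.08 with the Kupffer and endothelial covariates (adjusted p = 0.885, edgeR). It was 0.48 to 0.62, and not called, without C57BL/6J replicate 2 or 4 or any NZO/HlLtJ library (adjusted p of 0.0542 to 0.148). The test over strains (adjusted p = 0.0266, edgeR) was not passed when any of the 3 NZO/HlLtJ libraries was left out (adjusted p of 0.0567 to 0.0610) or when WSB/EiJ replicate 2 or 3 was (0.0597 and 0.0542).

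Aldh1l2 (ENSMUSG00000020256, chr10:83487450-83534140, minus strand) is the mitochondrial counterpart of Aldh1l1. It had 0 to 6 counts in a library and averaged 0.06463 CPM, near the level of a single count. Its strain means ran from 0.02749 CPM in WSB/EiJ to 0.1016 CPM in NZO/HlLtJ, and neighbouring strains overlapped throughout. It overlaps D10Wsu102e on the opposite strand. It was not tested for a difference between strains.

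The cytosolic pentose phosphate enzymes followed. G6pdx (ENSMUSG00000031400, chrX:74409483-74429194, minus strand) encodes glucose-6-phosphate dehydrogenase, the entry step of the pathway. It had only 23 to 140 counts in a library, and its C57BL/6J libraries held 2.051, 2.587 and 3.533 CPM. Strain means ran from 1.678 CPM in NZO/HlLtJ to 3.013 CPM in CAST/EiJ, and each strain overlapped the next. No strain differed from C57BL/6J (0 of 8 comparisons in edgeR, in DESeq2 and at an unadjusted p under 0.05), and the log2 fold change in C57BL/6J against the mean of the others was 0.36 ± 0.28 (SE; adjusted p = 0.403, edgeR), or 0.13 without C57BL/6J replicate 4. In 25 libraries its estimated count was fractional, and it overlaps Ikbkg on the opposite strand, which leaves its level uncertain. G6pd2, its retrogene copy, was listed at 0 counts after rounding in every library.

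Pgd (ENSMUSG00000028961, chr4:149149991-149166771, minus strand) encodes 6-phosphogluconate dehydrogenase, which yields the second NADPH of the pathway. It was the only member with its highest strain mean in C57BL/6J, as for 7.31% of all genes tested. The C57BL/6J libraries held 29.7, 38.8 and 36.97 CPM, a mean of 35.16 ± 4.81 CPM (SD, n = 3). The A/J libraries held 20.64, 18.95 and 29.03 CPM and the PWK/PhJ libraries 27.07, 21.34 and 22.43 CPM, all below those of C57BL/6J. Both strains were called lower than C57BL/6J, A/J by -0.62 (adjusted p = 0.0286) and PWK/PhJ by -0.57 (adjusted p = 0.0176) on the log2 scale in edgeR. Both calls were lost without C57BL/6J replicate 2 or 4, and each without either of 2 libraries of its own strain (A/J replicates 1 and 2, PWK/PhJ replicates 2 and 3), with adjusted p of 0.0591 to 0.146. The A/J call was also lost in the fit blocked on replicate number (0.0549). Against the mean of the 8 strains, C57BL/6J stood at 0.29 ± 0.13 (SE; adjusted p = 0.116, edgeR). The test over strains (adjusted p = 0.0283, edgeR) was lost without A/J replicate 1 or 2 (0.0659 and 0.0704), C57BL/6J replicate 2 (0.0532) or PWK/PhJ replicate 2 or 3 (0.0621 and 0.0559).

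Idh1 (ENSMUSG00000025950, chr1:65158616-65186500, minus strand), the cytosolic and peroxisomal isocitrate dehydrogenase, was near the middle in C57BL/6J. Its libraries there held 265.2, 243.8 and 198 CPM, a mean of 235.7 ± 34.3 CPM (SD, n = 3), against 247.4 CPM for the other strains. The NOD/ShiLtJ libraries were highest at 302.6, 305.4 and 331.9 CPM, and the WSB/EiJ libraries lowest at 162.4, 154.6 and 186.6 CPM, a 1.87-fold range of means. The strains at the ends lay on either side of C57BL/6J with no overlap. The test over strains gave an adjusted p = 0.000679 in edgeR, although no single strain was called against C57BL/6J (0 of 8; 2 at an unadjusted p under 0.05 and 1 in DESeq2; the nearest was WSB/EiJ, at -0.49 with an adjusted p = 0.0616).

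Aldh1l1, the first of the cytosolic folate enzymes, had the widest range of strain means among the tested members other than Nnt, 2.95-fold. Aldh1l1 (ENSMUSG00000030088, chr6:90486427-90600203, plus strand) encodes 10-formyltetrahydrofolate dehydrogenase, which releases a one-carbon unit as carbon dioxide and makes NADPH. The C57BL/6J libraries held 620, 947.3 and 901 CPM, a mean of 822.8 ± 177 CPM (SD, n = 3), with replicate 1 lowest. The A/J libraries were lower still at 556.4, 553.2 and 520.3 CPM, and the CAST/EiJ libraries, at 661.6, 696.8 and 814.2 CPM, lay within the C57BL/6J range. These 3 strains formed the lower end, and every library of the other 6 strains lay above all libraries of C57BL/6J.

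At the upper end, the NZO/HlLtJ libraries held 1508, 1528 and 1773 CPM of Aldh1l1 and the WSB/EiJ libraries 1286, 1443 and 2036 CPM. The PWK/PhJ libraries held 1352, 1527 and 1422 CPM and the DBA/2J libraries 1132, 1319 and 1419 CPM. The 129S1/SvImJ libraries held 987.4, 1408 and 1224 CPM and the NOD/ShiLtJ libraries 1225, 1134 and 1117 CPM. From NZO/HlLtJ to NOD/ShiLtJ each strain overlapped the next, and there was a gap below NOD/ShiLtJ.

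Aldh1l1 was called higher than C57BL/6J in 5 strains and lower in 1. The log2 fold changes were 0.96 in NZO/HlLtJ (adjusted p = 0.000466), 0.95 in WSB/EiJ (0.00058), 0.80 in PWK/PhJ (0.00182), 0.65 in DBA/2J (0.0223), 0.55 in 129S1/SvImJ (0.0328) and -0.60 in A/J (0.0413), all with edgeR adjusted p-values. With the Kupffer and endothelial covariates, 129S1/SvImJ stood at 0.32 (adjusted p = 0.552) and DBA/2J at 0.53 (adjusted p = 0.1), neither called. The calls of 129S1/SvImJ, DBA/2J and A/J were each lost when 1 of several libraries was left out (adjusted p of 0.0502 to 0.185), and that of A/J in the fit blocked on replicate number (-0.50, 0.122) or the GC trend removed (-0.55, 0.0778). Without the filter on low counts the calls of 129S1/SvImJ (0.0721) and A/J (0.0954) were lost. NOD/ShiLtJ (0.49, adjusted p = 0.0646) and CAST/EiJ (-0.18, adjusted p = 0.441) were not called. Against the mean of the 8 strains, C57BL/6J was 0.73-fold, a log2 fold change of -0.45 ± 0.14 (SE; adjusted p = 0.0266, edgeR). That call was lost without C57BL/6J replicate 1 (-0.29, adjusted p = 0.188) or replicate 4 (-0.52, 0.0622), with Kupffer and endothelial marker levels as covariates (-0.30, 0.358), without the filter on low counts (0.0532) and against the 5 other classical strains alone (0.0528). In 27 of 27 libraries the estimated count of Aldh1l1 was fractional, and the gene overlaps Gm45901, Gm44236 and the antisense gene Gm15756, which leaves its level uncertain.

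Mthfd1 (ENSMUSG00000021048, chr12:76255298-76319803, plus strand) encodes the trifunctional cytosolic enzyme that interconverts folate one-carbon forms and can make NADPH. It overlaps the antisense gene Gm34868 and other annotated sequences on the opposite strand, whose reads could not be separated if the libraries did not keep strand. The labels do not say whether they did, and the estimated count of Mthfd1 was fractional in 0 libraries. Its C57BL/6J libraries were close together at 164, 169.5 and 163.3 CPM. The CAST/EiJ libraries held 222.7, 224.8 and 229.3 CPM and the 129S1/SvImJ libraries 213.3, 255.8 and 190.8 CPM, all above C57BL/6J. A/J was lowest, with 166.1, 151.8 and 125.6 CPM. CAST/EiJ (0.45, adjusted p = 0.0114) and 129S1/SvImJ (0.41, adjusted p = 0.0331) were called higher than C57BL/6J in edgeR, and C57BL/6J against the mean of all others stood at -0.24 ± 0.10 (SE; adjusted p = 0.11, edgeR; 0.0461 in DESeq2). Its strain effect (adjusted p = 0.00679, edgeR) was at 0.208 with the Kupffer and endothelial covariates. With these the difference of CAST/EiJ fell to 0.21 (adjusted p = 0.425) and that of 129S1/SvImJ to 0.16 (adjusted p = 0.716). The CAST/EiJ call was also lost in the fit blocked on replicate number (0.067). The 129S1/SvImJ call was lost without any 1 of the C57BL/6J libraries or without 129S1/SvImJ replicate 1 or 2 (adjusted p of 0.0501 to 0.187), and without the filter on low counts (0.112).

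Nadk (ENSMUSG00000029063, chr4:155562378-155591001, plus strand), the cytosolic NAD kinase, stood apart in CAST/EiJ. The CAST/EiJ libraries held 266.6, 246.2 and 238.4 CPM, above all libraries of every other strain. The C57BL/6J libraries held 157, 133 and 103.5 CPM and the A/J libraries, the lowest strain, 119.7, 113.9 and 106.1 CPM. CAST/EiJ exceeded C57BL/6J 1.91-fold, a log2 fold change of 0.93 (adjusted p = 0.000397, edgeR), and was the only strain of 8 called. From NZO/HlLtJ (176.3 CPM) down to A/J (113.3 CPM), each strain overlapped the next. C57BL/6J against the mean of the others gave -0.30 ± 0.14 (SE; adjusted p = 0.145, edgeR). It was -0.46 without C57BL/6J replicate 1 and -0.16 without replicate 4 (adjusted p = 0.669), and of all libraries left out in turn only PWK/PhJ replicate 1 gave a call (adjusted p = 0.0353), whose 101.8 CPM lay well below the 180.1 and 198.9 CPM of its strain.

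**Figure D3:**
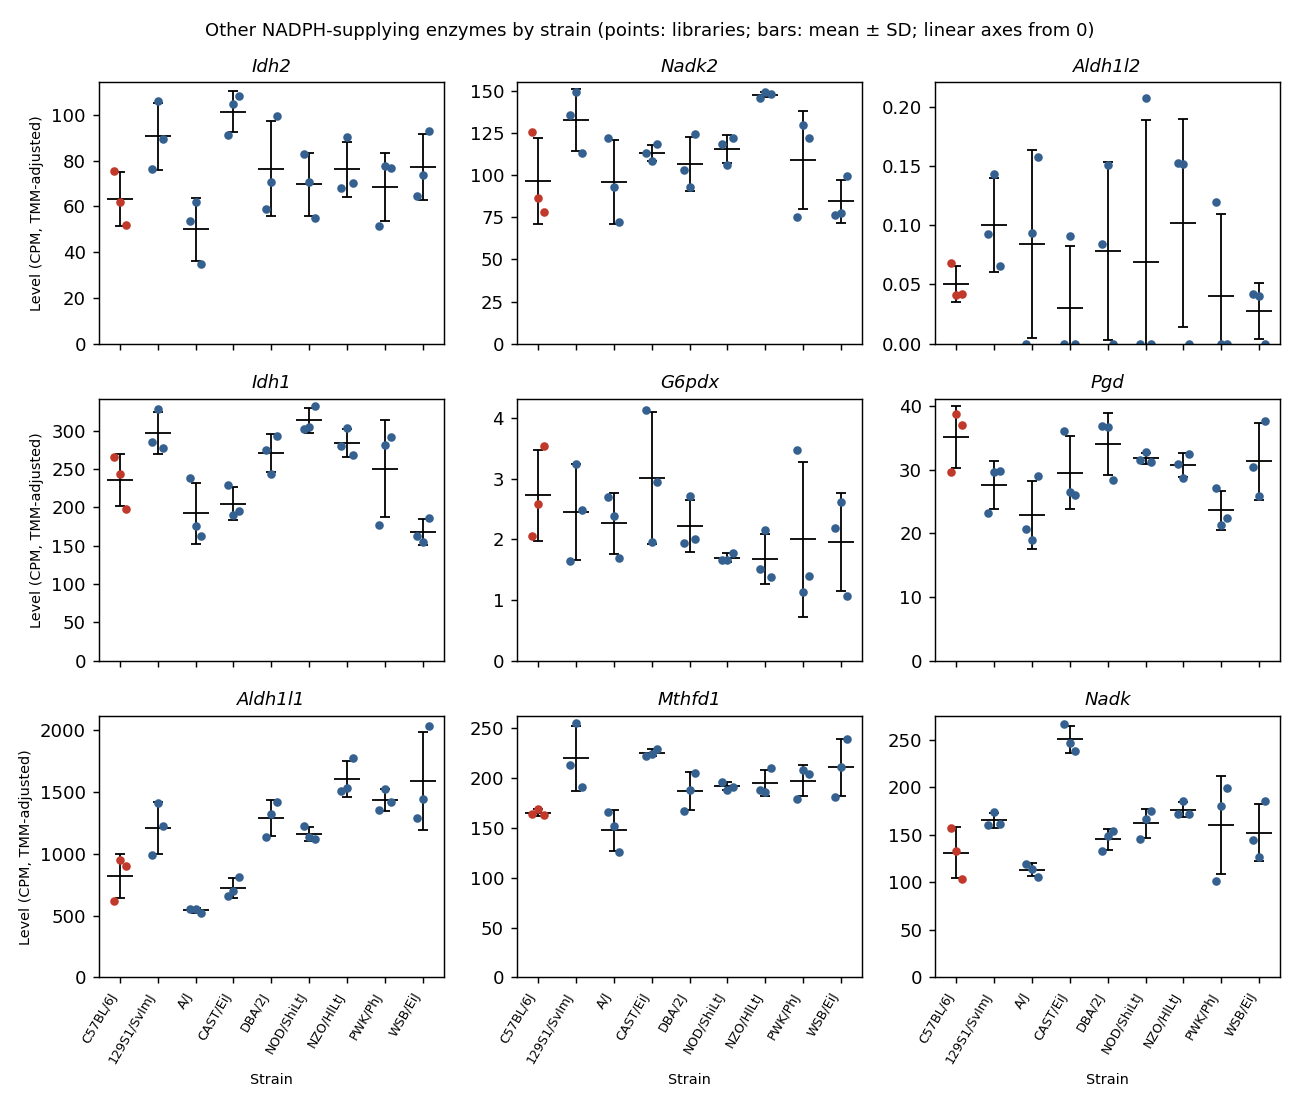
Level in CPM of the other 9 members by strain, each on its own linear axis from 0; points are libraries, bars the mean ± SD of 3, and C57BL/6J is red. Nadk stands apart in CAST/EiJ, Aldh1l1 is low in C57BL/6J, CAST/EiJ and A/J, and Aldh1l2 lies at 0 to 0.2079 CPM.

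Put side by side, the comparisons of each strain with C57BL/6J gave 21 calls in 72 tests of members, 18 higher and 3 lower, where 20.1% of all tests of genes in these 8 comparisons were called, 9.52% higher and 10.6% lower. Nnt accounted for 8 of the 21, Aldh1l1 for 6, Pgd and Mthfd1 for 2 each, and Idh2, Nadk and Nadk2 for 1 each. Since Nnt was called in every comparison, it raises the pooled share and is part of every strain's count below. These shares therefore do not describe the other members alone. The called members numbered 4 of 9 in CAST/EiJ (38% of all genes called), 3 in 129S1/SvImJ (20.9%), 3 in A/J (7.84%), 3 in NZO/HlLtJ (29.3%) and 3 in PWK/PhJ (26.2%). They numbered 2 in DBA/2J (9.06%), 2 in WSB/EiJ (13.6%) and 1 in NOD/ShiLtJ (15.9%), where only Nnt was called. All 8 comparisons share the C57BL/6J libraries. From the 6 libraries of the 2 strains compared alone, 6 calls were lost: Aldh1l1 in 129S1/SvImJ, DBA/2J and A/J, Mthfd1 in 129S1/SvImJ, and Pgd in A/J and PWK/PhJ (adjusted p of 0.0623 to 0.207). Of the 21 calls, 12 held under every alternative setting tried: 8 for Nnt, 3 for Aldh1l1 (NZO/HlLtJ, PWK/PhJ and WSB/EiJ) and that of Nadk in CAST/EiJ.

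**Figure D4:**
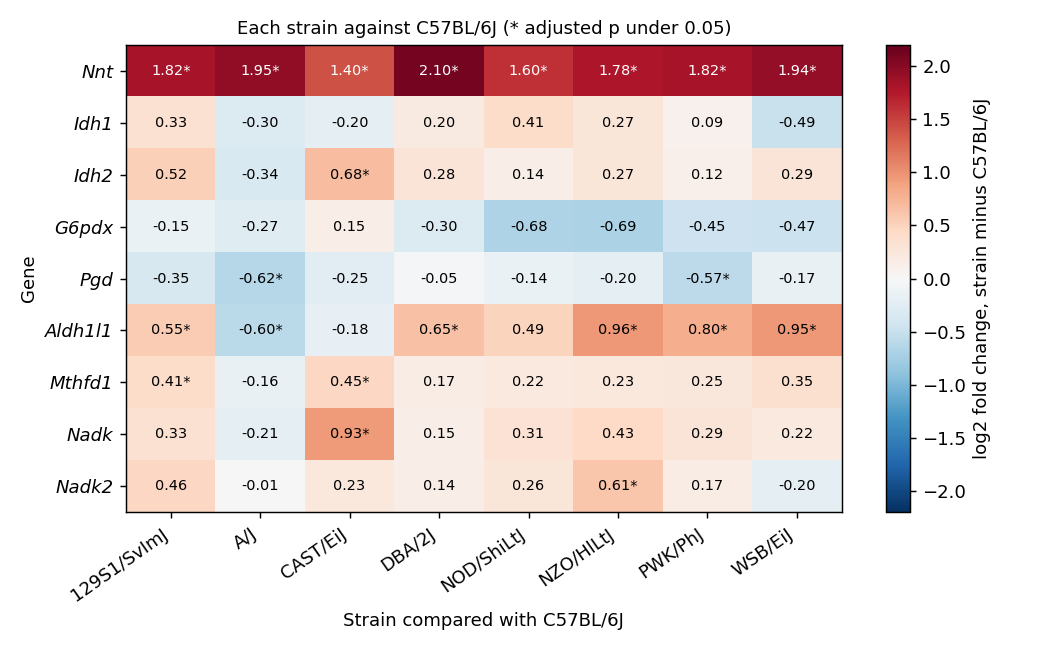
Log2 fold change of each tested member in each of 8 strains relative to C57BL/6J, coloured from blue (lower) to red (higher), with an asterisk where the edgeR adjusted p was under 0.05. The Nnt row is red throughout (1.40 to 2.10), and the Aldh1l1 row runs from -0.60 in A/J to 0.96 in NZO/HlLtJ.

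Idh2, Mthfd1 and Nadk varied together across strains. Over the 9 strain means, Pearson's r of log2 CPM was 0.94 between Idh2 and Mthfd1, 0.88 between Idh2 and Nadk and 0.83 between Mthfd1 and Nadk, and all 3 genes were highest in CAST/EiJ and lowest in A/J. Over the 27 libraries the values were 0.84, 0.76 and 0.72, and over deviations from the strain means 0.67, 0.56 and 0.44. The grouping differed within strains: over deviations Nadk was closer to Idh1 (0.85) and Nadk2 (0.77) than to Idh2 or Mthfd1, and Nadk2 had r of 0.88 with Idh1, 0.69 with Idh2 and 0.68 with Mthfd1. Idh1 and Nadk2 also went together over the 27 libraries (0.78). Nnt had r between -0.32 and 0.31 with each of the others over 27 libraries. Over strain means its r ran from -0.49 (G6pdx) to 0.35 (Aldh1l1), and over deviations from -0.44 (Idh1) to 0.38 (G6pdx). These correlations are descriptions, since genes of a library share its depth and cell content. The summed Kupffer markers moved with the same genes, with r of -0.69 for Mthfd1, -0.62 for Nadk, -0.62 for Nadk2 and -0.60 for Idh2, against -0.28 for Nnt. The summed lymphocyte markers gave similar values for the same 4 genes (-0.61 to -0.60). For Nnt the summed cholangiocyte markers (bile duct cells) had r of -0.58, at strain means of only 1.977 CPM (129S1/SvImJ) to 8.494 CPM (NOD/ShiLtJ) and 7.139 CPM in C57BL/6J. A/J was the lowest strain for 5 members (Idh2, Pgd, Aldh1l1, Mthfd1 and Nadk), and the summed hepatocyte markers, highest in A/J, had r of -0.73 with Nadk2, -0.69 with Nadk, -0.65 with Idh1, -0.64 with Idh2 and -0.57 with Mthfd1. This sum follows Alb, which averaged 132000 CPM, where no other marker in it averaged above 6794 CPM. With Kupffer and endothelial marker levels as covariates, the strain effect was no longer called for Idh2 (adjusted p = 0.177) and Mthfd1 (0.208) and was still called for Nadk (0.00667) and Nadk2 (0.0167), all edgeR. Other marker sums had similar r: for Nadk2 -0.66 with the endothelial and -0.62 with the stellate markers, and for Nadk -0.51 with the erythroid markers. The part of the hepatocyte, lymphocyte, cholangiocyte, stellate and erythroid markers in these results was not tested.

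The upstream sequences of the 3 genes whose strain means moved together are shown to let their promoters be compared. They are the bases of the RefSeq promoter windows (GRCm38.p6) upstream of the GENCODE gene start, 5′ to 3′ on the gene's strand, with capitals for CCAAT and GGGCGG or their reverse complements.
Idh2 (chr7:80115393-80115600, minus strand): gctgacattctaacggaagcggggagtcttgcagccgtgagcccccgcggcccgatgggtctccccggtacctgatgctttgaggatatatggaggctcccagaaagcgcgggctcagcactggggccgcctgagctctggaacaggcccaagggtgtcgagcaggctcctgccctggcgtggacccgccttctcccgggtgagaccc
Mthfd1 (chr12:76254982-76255231, plus strand): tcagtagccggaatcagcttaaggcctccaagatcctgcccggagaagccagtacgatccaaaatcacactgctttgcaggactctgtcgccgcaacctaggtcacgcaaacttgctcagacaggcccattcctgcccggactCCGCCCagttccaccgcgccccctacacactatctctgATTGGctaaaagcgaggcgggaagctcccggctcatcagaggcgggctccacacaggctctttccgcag
Nadk (chr4:155562131-155562377, plus strand): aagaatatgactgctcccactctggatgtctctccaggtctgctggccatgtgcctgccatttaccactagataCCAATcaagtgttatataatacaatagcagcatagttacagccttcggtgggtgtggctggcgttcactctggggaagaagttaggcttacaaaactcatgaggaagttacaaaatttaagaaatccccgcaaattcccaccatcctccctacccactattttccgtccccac

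Mthfd1 had 1 CCAAT and 1 GGGCGG match, Nadk 1 CCAAT match, and Idh2 no whole match in the stretch shown. The CCAAT match of Idh2 began with the last 2 bases shown, in lower case, and ran on into bases annotated as transcribed, where its GGGCGG matches also lay. The whole window of 250 bases was GC-rich in Idh2 (67.2%) and Mthfd1 (59.2%) and less so in Nadk (46.8%). RefSeq windows were matched for 7 of the 10 members, not for Nnt, Aldh1l2 and Nadk2. On both strands of those 250 bases, CCAAT was found in 6 of 7 windows and in 33.8% of 32851 windows of all genes, and GGGCGG in 6 of 7 and 32.7%. The letters TGACNNNGC, the core of the antioxidant response element, were found in 1 of 7 windows (G6pdx) and in 10.2% of all, and CACGTG in 0 of 7 and 6.02%. ATTGG, the other strand's form of the first motif, can share its last bases with GGGCGG, which was not the case in the stretches shown. Such matches describe letters only.

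For each member, the gene most alike over 27 libraries was sought among 10528 genes by Pearson's r of log2 CPM. For Nnt the 5 most alike were Cyp2c39 (0.876), Tymp (0.847), Trim34b (0.838), Pik3c2g (0.823) and Hddc3 (0.803). All 5 were low in C57BL/6J, and without the C57BL/6J libraries their r with Nnt over 24 libraries was 0.475, 0.374, 0.342, -0.031 and -0.333. The likeness thus rested on that strain. For the others it did not: r was 0.942 for Nadk with the chaperone cofactor gene Ahsa1 (0.938 without C57BL/6J) and 0.92 for Nadk2 with the proteasome subunit gene Psmc2 (0.918). It was 0.907 for Mthfd1 with Dlst, a subunit gene of 2-oxoglutarate dehydrogenase, 0.905 for Idh1 with Pxdc1, 0.889 for Idh2 with Mif, 0.863 for Aldh1l1 with Coq8a, 0.764 for Pgd with Sccpdh and 0.614 for G6pdx with Ptprg.

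Other genes of NADP(H) metabolism were read from 6 lists of 98 genes, of which 97 were tested. In C57BL/6J against the mean of the 8 strains, 20 of them (20.6%) were called by edgeR, 11 higher and 9 lower, against 18.1% of all genes tested. The median log2 fold change of the 97 genes was -0.16, against 0.01 over all genes. The summed Kupffer markers were also higher in C57BL/6J, and with Kupffer and endothelial marker levels as covariates 5 genes were called, 2 higher and 3 lower, where 7.15% of all genes were. Leaving out C57BL/6J replicate 1 gave 35 calls, replicate 2 gave 12 and replicate 4 gave 7, while the share called among all genes was 20.4%, 10.1% and 9.06%.

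Of the other 7 tested genes of the pentose phosphate route, 1 was called (14.3%, against 18.1% of all genes). H6pd, which makes NADPH inside the endoplasmic reticulum, held 627.7, 625.4 and 761.2 CPM in the C57BL/6J libraries and 671.4 ± 77.8 CPM on average (SD, n = 3), against 456.7 CPM in the other strains. It was higher by 0.60 on the log2 scale (adjusted p = 0.00361, edgeR), and no other strain had a higher mean, the next being 625.1 CPM. The call was not kept without C57BL/6J replicate 4 (0.50, adjusted p = 0.068) or with the marker covariates (0.51, 0.0676). Among 14 genes of the malic enzyme and citrate to isocitrate steps, 0 were called by edgeR and 0 by DESeq2 (18.1% and 20.5% of all genes). At an unadjusted p under 0.05 in edgeR, 2 were lower, where 12.8% of all genes were. Me1, the cytosolic malic enzyme, stood at 0.06 (adjusted p = 0.875) although its strain means ran from 72.64 to 280.1 CPM. In the folate list 1 of 14 was called (7.14%, against 18.1% of all genes). This was Shmt1, the cytosolic serine hydroxymethyltransferase that feeds the one-carbon pool. Its C57BL/6J libraries held 145.3, 118.8 and 116.2 CPM, a log2 fold change of -0.62 (adjusted p = 0.00137, edgeR), which was -0.46 with the marker covariates (adjusted p = 0.0572). Strain means elsewhere ran from 139.5 to 231 CPM, and the A/J libraries, at 159.4, 153.9 and 105.2 CPM, overlapped those of C57BL/6J. In 27 libraries the estimated count of Shmt1 was fractional, which leaves its level uncertain.

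In the list of NAD synthesis and turnover, 5 of 18 genes were called, 2 higher and 3 lower, where 18.1% of all genes were called, 11.6% higher and 6.5% lower. Hddc3, which encodes the NADPH phosphatase MESH1, was lowest: the C57BL/6J libraries held 0.581, 0.7802 and 0.8833 CPM, a mean of 0.7482 ± 0.154 CPM (SD, n = 3). Strain means elsewhere ran from 4.781 to 10.35 CPM, with PWK/PhJ the highest strain at 7.627, 11.48 and 11.95 CPM, and no library overlapped those of C57BL/6J. The log2 fold change was -3.07 ± 0.23 (SE; adjusted p = 4.29e-10, edgeR), larger than that of Nnt, and it kept its call under every setting tried. Acmsd, a branch-point enzyme of tryptophan breakdown to NAD, had a log2 fold change of -1.18 (adjusted p = 0.0128), and Nmnat1 was the third gene called lower. CAST/EiJ (78.46 CPM) and WSB/EiJ (38.7 CPM) were far above the other strains for Acmsd, while A/J (7.42 CPM) lay below C57BL/6J (8.301 CPM). Against the 5 other classical strains alone the log2 fold change of Acmsd was -0.61 (adjusted p = 0.197), and with the marker covariates -0.49. Nnmt, which methylates nicotinamide, was called higher on the log2 scale (0.93, adjusted p = 0.0161), although its C57BL/6J mean of 81.78 CPM was only the 4th of 9. CAST/EiJ (245.4 CPM), PWK/PhJ (145.1 CPM) and WSB/EiJ (91.67 CPM) held more Nnmt, and A/J, at 2.793 CPM, lay far below all others. Against the 5 other classical strains alone, all of which held less, the log2 fold change of Nnmt was 2.00 (adjusted p = 5.61e-06, edgeR). Nmrk1, a nicotinamide riboside kinase, was called higher (0.60, adjusted p = 0.00548), with 11.86 CPM in C57BL/6J, below the 18.14 CPM of WSB/EiJ. The calls of Acmsd, Nnmt and Nmrk1 were lost without C57BL/6J replicate 2 or replicate 4 (adjusted p of 0.0536 to 0.296) and with the marker covariates (0.162 to 0.521). Without replicate 2 the log2 fold changes were -1.23 for Acmsd, 0.56 for Nnmt and 0.45 for Nmrk1, and without replicate 4 they were -1.07, 0.99 and 0.54. With the covariates Nnmt stood at 0.79 and Nmrk1 at 0.49.

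Of 24 glutathione and thioredoxin genes, which spend NADPH on peroxides and oxidised thiols, 3 were called lower and 0 higher (6.5% and 11.6% of all genes), with a list median of -0.22, against 0.01 over all genes. DESeq2 called 5 lower and 0 higher (8.64% and 11.8% of all genes), and 8 were lower and 0 higher at an unadjusted p under 0.05 in edgeR (12.8% and 18.8% of all genes). Glrx, the cytosolic glutaredoxin, held 20.54, 17.29 and 13.54 CPM in C57BL/6J against strain means from 26.69 to 50.89 CPM, a log2 fold change of -1.05 (adjusted p = 0.000259, edgeR). Only PWK/PhJ replicate 1, at 15.61 CPM, overlapped the C57BL/6J libraries. Glrx5, the mitochondrial iron-sulfur glutaredoxin, was lower by -0.56 (adjusted p = 0.0171) and Prdx2, a cytosolic peroxiredoxin, by -0.43 (adjusted p = 0.00904). For Glrx5, PWK/PhJ (64.59 CPM) was far above the other strains, and A/J (18.22 CPM) lay below C57BL/6J (21.9 CPM). Against the 5 other classical strains alone, Glrx5 stood at -0.34 (adjusted p = 0.156), and without C57BL/6J replicate 2 its adjusted p was 0.138. It reached -0.88 without C57BL/6J replicate 1, whose 30.62 CPM lay above the 19.05 and 16.03 CPM of the other two. Without C57BL/6J replicate 4 the log2 fold changes of Glrx5 and Prdx2 were -0.38 and -0.34 (adjusted p of 0.232 and 0.128), and with the marker covariates -0.48 and -0.28 (0.159 and 0.205).

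Among 20 NADPH-using synthesis and reduction genes, 10 were called, 8 higher and 2 lower, with a median log2 fold change of 0.46, where 11.6% of all genes were called higher and 6.5% lower and their median was 0.01. With the marker covariates, however, all 6 lists together held only 2 higher and 3 lower calls (7.15% of all genes were called). Without C57BL/6J replicate 4 they held 7 calls (9.06% of all genes). Cholesterol synthesis genes with the largest rises included Cyp51 (1.62, adjusted p = 0.00115), Sqle (1.61, adjusted p = 0.00967) and Hsd17b7 (1.19, adjusted p = 9.86e-06), all edgeR. The C57BL/6J libraries did not agree closely on them. Cyp51, which encodes lanosterol demethylase, held 147.9, 442.7 and 375.5 CPM, with replicate 1 far below the other two, and Hsd17b7 held 64.29, 123.1 and 132 CPM. C57BL/6J had the highest strain mean of both. Its replicate 1, however, lay below the Cyp51 means of NZO/HlLtJ (178.9 CPM), DBA/2J (176.7) and NOD/ShiLtJ (165.7) and the Hsd17b7 mean of A/J (65.65 CPM). CAST/EiJ was lowest for both, at 22.45 and 19.86 CPM. The call of Sqle was lost without C57BL/6J replicate 2 (adjusted p = 0.148) or replicate 4 (0.0825), and against the 5 other classical strains alone it stood at 1.16 (0.0879). With the marker covariates Cyp51 was at 1.49 (adjusted p = 0.0854) and Sqle at 1.34 (adjusted p = 0.286), no longer called. Also called were Fdft1, Dhcr7, Por and Decr2, which were higher, and Mecr and Cbr1, which were lower. These calls were not followed singly under the alternatives, and the losses over all lists given above bear on them too.

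**Figure D5:**
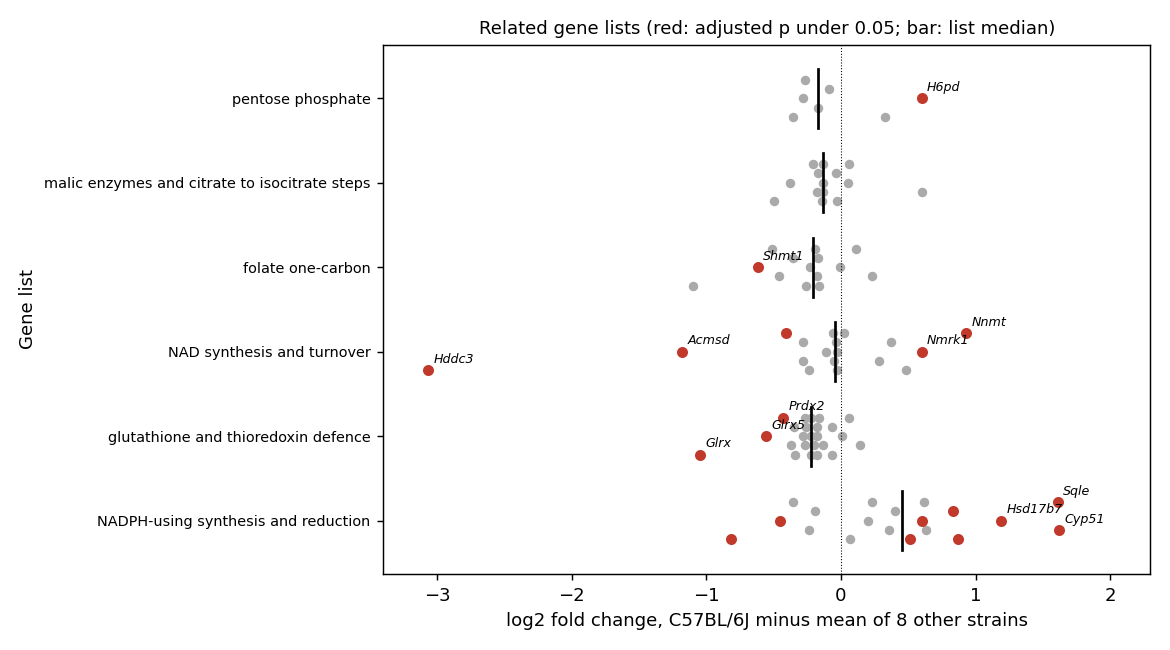
Log2 fold change in C57BL/6J against the mean of the 8 other strains for 96 of the 97 tested genes of the 6 lists, 1 point per gene with vertical spacing for legibility; red marks an edgeR adjusted p under 0.05 and the black bar the median of all tested genes of the list. The 2 largest falls are Hddc3 (-3.07) and Acmsd (-1.18), and Cyp51, Sqle and Hsd17b7 lie above 1.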

How the data were processed

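The authors deposited a table of estimated counts per Ensembl gene for 27 hepatocyte RNA libraries; 11.1% of all its values were not whole, so reads had been divided between genes. Per the labels' protocols, polyadenylated RNA was made into libraries with a TruSeq kit not stated to keep strand. The submitters' processing notes name GRCm38 (mm10), FastQC 0.11.5 and DESeq2; the aligner, the counter, and whether genomes of the single strains were used are not given in the sources used here. Another gene ID that shares the symbol Nnt was not analysed here.

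Counts were rounded, filtered with filterByExpr (14482 genes kept), scaled by TMM and fitted with edgeR 4.0.16 (quasi-likelihood; R 4.3.3, limma 3.58.1) with strain as the factor over all 27 libraries. C57BL/6J was tested against the mean of 8 strains and against each strain, and all strains together. P-values were adjusted by Benjamini-Hochberg over all genes tested and called under 0.05; they measure the spread between these libraries. SEs derive from the F statistic. Intervals are 95%. CPM uses TMM-adjusted sizes. Correlations were taken on log2 CPM (prior count 2). Coordinates and transcript lengths are from GENCODE M21 and promoters from RefSeq. Libraries of a strain differed beyond counting noise (chi-square per degree of freedom 26.4 to 147).

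In simulated data for the C57BL/6J contrast with 14077 genes, 48% of 50 genes changed 1.5-fold, 86% of 100 changed 2-fold and 100% of 50 changed 4-fold were recovered, with 6 false calls. The changed genes were drawn from those with an expected count of at least 50, and no other difference between strains was simulated. In the real data 74.2% of genes differed between strains, so these shares do not measure the power of the real contrast. The alternatives were DESeq2 1.42.0, median-of-ratios size factors, other filters on low counts, no rounding, a replicate block, marker covariates (mean log2 CPM of Kupffer and endothelial markers), a GC trend removed, the 5 other classical strains alone, the 2 strains compared alone, and each library left out. The members and lists were chosen with earlier results of these data known. Named were all members, their neighbours and most alike genes, and up to 4 called genes of a list by fold change with a mean of at least 1 CPM; Me1, Nmnat1, Fdft1, Dhcr7, Por, Decr2, Mecr and Cbr1 were named after their values were seen. A gene that the rule would name is not reported here.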

Additional observations from a re-analysis of the deposited data

How the results depend on the processing

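Nnt kept its direction and call under every alternative, with log2 fold changes in C57BL/6J of -1.93 to -1.75. The strain effect held for 8 members, for 7 to 8 when a library was left out, and for 5 with the replicate number as a block, where Idh2 (adjusted p = 0.0655), Pgd (0.0699) and Nadk2 (0.0603) dropped out; the cause was not tested. The 2 members called in C57BL/6J against the mean of 8 strains became 1 to 3 with a library left out, and 1 without the filter on low counts, with the marker covariates, or with the 5 other classical strains alone. The 21 calls against C57BL/6J became 15 to 25 with a library left out, 15 from the libraries of each pair of strains alone (15 higher, 0 lower), 17 with the covariates (12 higher, 5 lower) and 18 with the block (17 higher, 1 lower). The 20 pathway genes called became 7 to 35 with a library left out and 5 with the covariates; they split as 11 higher and 9 lower, 10 and 14 in DESeq2, and 11 and 11 with the GC trend removed. Across all genes tested, the covariates lowered the share called from 18.1% to 7.15%. Small changes of members that were not called turned sign: Idh1 from -0.04 to 0.07 without C57BL/6J replicate 4 (-0.13 to 0.07 over the libraries left out) and to 0.15 with the covariates, G6pdx from 0.36 to -0.09 and Nadk2 from -0.21 to 0.07 with the covariates.

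The replicate numbers did not pair the libraries: deviations of the 76 same-numbered pairs correlated at 0.01 on average (-0.293 to 0.275), and 7 of 27 libraries correlated best with their own number. Of the 12 named pathway genes, 3 kept their call in every setting (Hddc3, Glrx and Hsd17b7). The depth limits what can be said of Aldh1l2, with at most 6 counts in a library, and of G6pdx, with at most 140.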
